A study of Rattus norvegicus with 6 samples.

Results

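The transglutaminase genes Tgm1, Tgm2, Tgm3, Tgm5 and F13a1 were followed in bulk RNA sequencing of rat mesenchymal stem cells. These 5 genes were matched by exact symbol among the 20653 genes of the deposited tables. Of the 5, 4 had a row and 3 (Tgm1, Tgm2 and Tgm5) passed the filter on low counts, which 14505 of all genes passed. Tgm3 had no row. The members were proposed with the read counts of this same comparison in view, so their differences between the groups are given here as description, with no test.

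Transglutaminases are calcium-dependent enzymes that join glutamine and lysine side chains of proteins by a bond that resists proteolysis. Tgm2, the tissue transglutaminase, is made in many cell types, crosslinks matrix proteins and binds fibronectin and integrins at the cell surface. Tgm1, Tgm3 and Tgm5 are known from human and mouse skin, where they build the cornified envelope of keratinocytes. F13a1 encodes the catalytic subunit of coagulation factor XIII, which crosslinks fibrin and is made by macrophages and by the precursors of platelets. Epb42, a further member of the gene family, encodes a red blood cell membrane protein without crosslinking activity.

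The tested cells, named NPS-EMSC, were mesenchymal stem cells overexpressing neuropeptide S according to the series title, and the cells named EMSC served as their reference. Both came from rat nasal mucosa, are labelled as primary cells with SD as the genotype, and were sequenced in 3 libraries per group. The sources used here give no control vector, promoter, age, culture time or number of animals. Nothing states that the libraries came from separate cultures, so the p-values measure the spread between these libraries, which may be technical.

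NPS-EMSC libraries held 39082245 to 39511976 counted reads and EMSC libraries 39314098 to 40261205. Nps had 77014 to 93566 reads per NPS-EMSC library against 0, 0 and 10 reads in EMSC, with all 10 in EMSC replicate 3. All 15 markers on the mesenchymal list passed the filter. Thy1 (CD90) stood at 1217 ± 34.0 CPM in NPS-EMSC and 417 ± 8.15 CPM in EMSC (SD, n = 3 each), and Nt5e (CD73) at 61.7 ± 2.90 and 13.8 ± 1.497 CPM in the same order of groups. CPM are read counts scaled to a common library total, with TMM factors. Every log2 fold change below is NPS-EMSC minus EMSC, so a positive value means higher in NPS-EMSC.

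The promoters of Tgm1, of Tgm5 and of its neighbour Epb42 are shown because these had the largest fitted changes among the transglutaminase family genes tested. Each is a RefSeq window of 300 bases on assembly GRCr8, from 250 bases before to 50 bases after the start site, written along the strand of the gene. Capitals mark matches on either strand to the motif TATAAA of the TATA box, the motif CCAAT of the CCAAT box, the motif GGGCGG of the GC box or the motif TGANTCA of AP-1. None of the matches shown overlap. The Tgm1 window lies at chr15:33174218-33174517 on the minus strand, that of Tgm5 at chr3:128497712-128498011 on the minus strand and that of Epb42 at chr3:128451634-128451933 on the minus strand.
Tgm1: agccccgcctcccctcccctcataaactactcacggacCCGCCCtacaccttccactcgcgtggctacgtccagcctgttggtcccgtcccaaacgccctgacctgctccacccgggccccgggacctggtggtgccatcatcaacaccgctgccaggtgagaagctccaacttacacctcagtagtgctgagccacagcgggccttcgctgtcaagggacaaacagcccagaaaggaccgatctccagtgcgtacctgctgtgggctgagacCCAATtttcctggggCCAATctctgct
Tgm5: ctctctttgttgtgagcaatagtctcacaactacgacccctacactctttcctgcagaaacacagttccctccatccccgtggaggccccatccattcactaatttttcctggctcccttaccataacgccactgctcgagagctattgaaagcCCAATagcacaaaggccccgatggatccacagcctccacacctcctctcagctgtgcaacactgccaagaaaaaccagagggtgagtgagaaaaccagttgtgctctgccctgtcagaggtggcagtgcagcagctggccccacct
Epb42: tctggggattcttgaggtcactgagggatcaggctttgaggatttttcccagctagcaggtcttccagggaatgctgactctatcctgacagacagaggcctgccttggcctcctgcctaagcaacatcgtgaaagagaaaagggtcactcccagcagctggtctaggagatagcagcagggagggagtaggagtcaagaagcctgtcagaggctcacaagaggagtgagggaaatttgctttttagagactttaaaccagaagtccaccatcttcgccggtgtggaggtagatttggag

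The Tgm1 window held 15 CpG dinucleotides, the Tgm5 window 5 and the Epb42 window 3, against a median of 7 over 33469 RefSeq windows of the same length. Tgm1 had 1 GGGCGG match and 2 CCAAT matches, Tgm5 had 1 CCAAT match, and the Epb42 window had none of the 4 motifs. Of all windows, 33.1% held the motif GGGCGG, 37.5% held CCAAT, 14.2% held TATAAA and 7.33% held TGANTCA. Such matches describe the letters only and do not mark bound sites.

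Tgm2 was by far the most abundant transglutaminase transcript in both groups. The NPS-EMSC libraries gave 3493, 4506 and 3753 reads of it, against 4828, 4801 and 4678 reads in the EMSC libraries. On the CPM scale these were 91.2, 116 and 96.4 in NPS-EMSC and 117.2, 119 and 117.2 in EMSC. The groups did not overlap, but NPS-EMSC replicate 2 lay just under the lowest EMSC library, while replicates 1 and 3 were clearly lower.

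The mean level of Tgm2 was 101 ± 13.3 CPM in NPS-EMSC and 118 ± 0.898 CPM in EMSC (SD, n = 3 each). The fitted log2 fold change was -0.22 (SE 0.07), a fold of 0.861. The coefficient of variation was 13.2% in NPS-EMSC and 0.763% in EMSC, so the size of the difference depended on which NPS-EMSC library was counted. It was -0.33 without NPS-EMSC replicate 2 and -0.14 without NPS-EMSC replicate 1.

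Tgm1, the membrane-bound transglutaminase of keratinocytes, was higher in every NPS-EMSC library. It had 432, 317 and 417 reads in NPS-EMSC, against 81, 65 and 44 reads in EMSC. Its mean was 10.1 ± 1.64 CPM in NPS-EMSC and 1.56 ± 0.435 CPM in EMSC (SD, n = 3 each), and the fitted log2 fold change was 2.65 (SE 0.20), a fold of 6.27. The ratio of pooled reads at equal library totals, NPS-EMSC over EMSC, was 6.24 with a 95% exact counting interval of 5.35 to 7.31. Such intervals cover counting error only. NPS-EMSC replicate 2 had the lowest Tgm1 value of its group and the highest Tgm2 value.

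Tgm5, another transglutaminase of the epidermis, was nearly absent from NPS-EMSC. It had 1, 0 and 0 reads in NPS-EMSC, against 232, 226 and 219 reads in EMSC, where the libraries were close to each other at 5.63, 5.59 and 5.49 CPM. The ratio of pooled reads at equal library totals, NPS-EMSC over EMSC, was 0.00150 (95% exact counting interval 3.80e-05 to 0.00840). The fitted log2 fold change of -6.57 (SE 0.36) depends on the prior count added by the fit and was -8.04 with a prior count of 0.5. The single NPS-EMSC read lay in replicate 1.

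F13a1 was barely detected in either group. It had 2, 0 and 0 reads in NPS-EMSC, against 4, 0 and 1 reads in EMSC, and did not pass the filter. The ratio of pooled reads at equal library totals, NPS-EMSC over EMSC, was 0.407 with a 95% exact counting interval of 0.0387 to 2.48, so no difference was detectable at this depth. Of the 4 members with a row, the groups did not overlap in 3 (Tgm1, Tgm2 and Tgm5), beside 64.7% of all genes tested. Because the members were chosen on these values, nothing is read from that count.

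**Figure D1:**
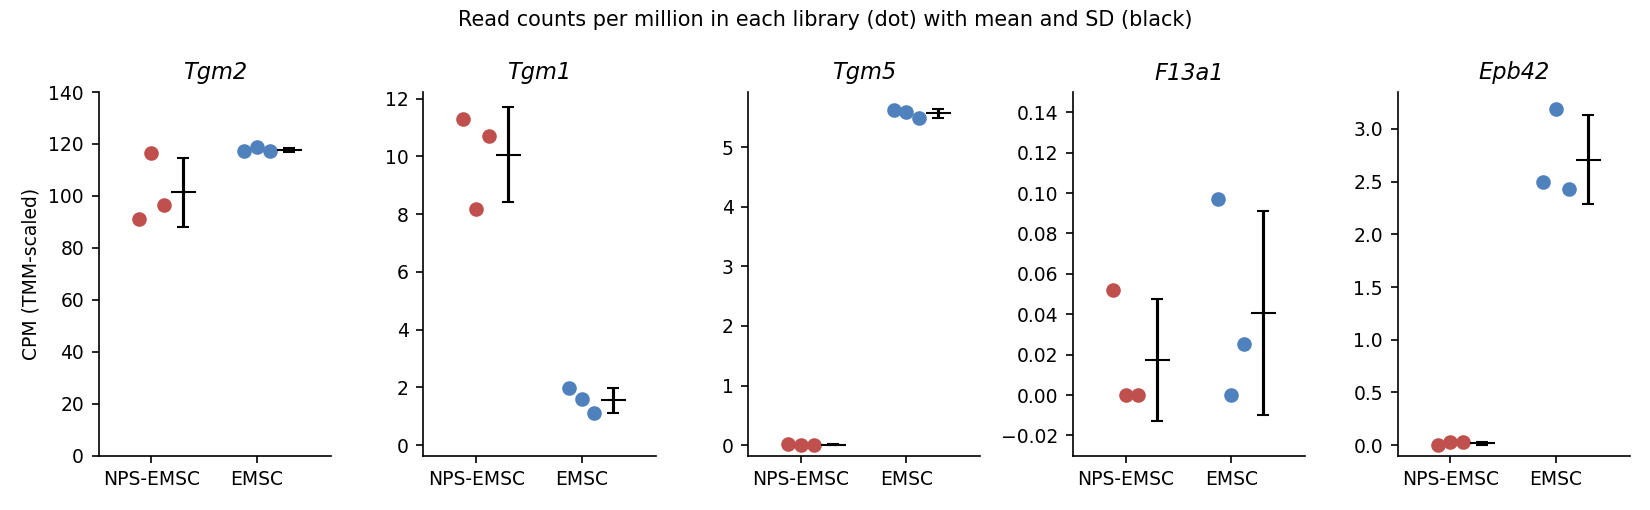
Read levels in CPM (TMM-scaled, each panel with its own vertical axis) of the 4 members with a row and of Epb42, with a dot per library, NPS-EMSC in red and EMSC in blue, and the mean with its SD in black. Tgm1 is higher in all 3 NPS-EMSC libraries, Tgm5 and Epb42 are at or near 0 there, and the Tgm2 value of NPS-EMSC replicate 2 sits just under the EMSC libraries.

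Per length, on the FPKM values the authors deposited, the second most abundant member differed between the groups. In NPS-EMSC, Tgm2 stood at 26.3 ± 3.601 FPKM and Tgm1 at 2.24 ± 0.355 FPKM, while Tgm5 and F13a1 averaged 0.00491 FPKM each and could not be ranked against each other. In EMSC, Tgm2 stood at 31.4 ± 0.179 FPKM, Tgm5 at 3.26 ± 0.0637 FPKM, Tgm1 at 0.359 ± 0.102 FPKM and F13a1 at 0.0120 ± 0.0149 FPKM (SD, n = 3 each). In EMSC the 4 levels did not overlap between genes. By mean FPKM among 20653 genes, Tgm2 ranked 2596 in NPS-EMSC and 2143 in EMSC, Tgm1 ranked 9631 and 12617 in those groups, and Tgm5 ranked 18412 and 9049.

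The summed FPKM of the members was 26.0, 32.2 and 27.4 in the NPS-EMSC libraries, against 35.4, 34.96 and 34.8 in the EMSC libraries. No NPS-EMSC library reached the lowest EMSC sum. Tgm2 made up 91.9% ± 2.09 of the sum in NPS-EMSC and 89.6% ± 0.394 in EMSC. Tgm1 made up 8.03% ± 2.05 and 1.02% ± 0.281 in NPS-EMSC and EMSC, and Tgm5 made up 0.0190% ± 0.0330 and 9.31% ± 0.0890. Counted per read and not per length, the Tgm2 share was 90.8% in NPS-EMSC and 94.3% in EMSC, so the direction of the difference in that share turned with the unit.

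**Figure D2:**
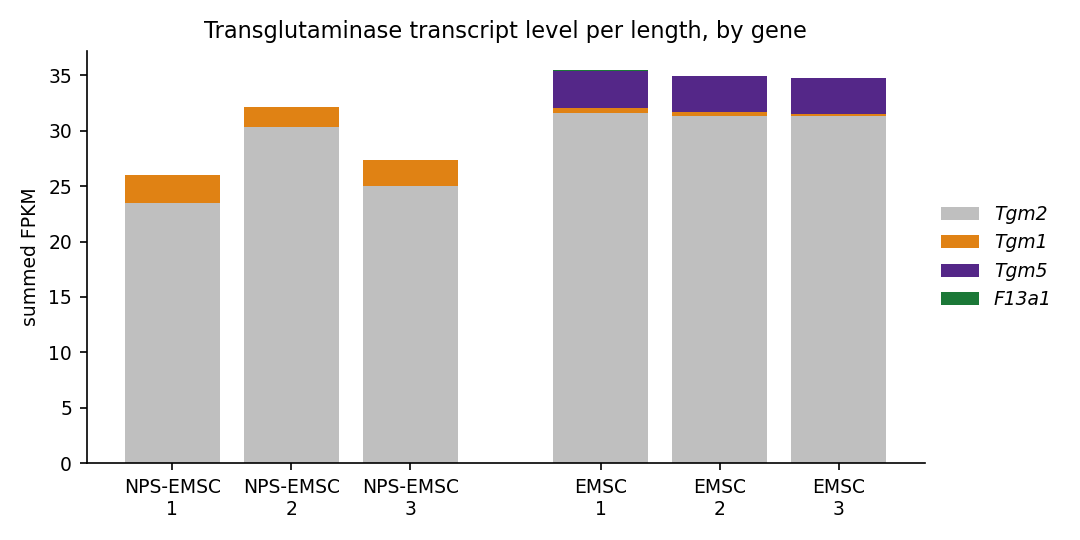
Summed FPKM of the transglutaminase members in each library (vertical axis, from 0), stacked by gene, with the 3 NPS-EMSC libraries left of the 3 EMSC libraries. Tgm2 fills most of each bar, the rest is mainly Tgm1 in NPS-EMSC and mainly Tgm5 in EMSC, and F13a1 is too low to see.

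Epb42, which lies directly beside Tgm5 in the chromosome order of the RefSeq table, was nearly absent from the same libraries. It had 0, 1 and 1 reads in NPS-EMSC, against 103, 129 and 97 reads in EMSC. It fell to 0.0172 ± 0.0149 CPM in NPS-EMSC, against 2.71 ± 0.420 CPM in EMSC (SD, n = 3 each; log2 fold change -5.35, SE 0.44, adjusted p = 1.20e-10 by the edgeR quasi-likelihood test). The pooled ratio of NPS-EMSC over EMSC was 0.00618 (95% exact counting interval 0.000745 to 0.0225). Like the fold change of Tgm5, that of Epb42 depends on the prior count. The loci of Tgm5 and Epb42 do not overlap in the RefSeq table.

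Tgm7, a little-studied transglutaminase gene on the other side of Tgm5, was too low to test. It had 0, 0 and 2 reads in NPS-EMSC, against 2, 1 and 10 reads in EMSC, and the groups overlapped. Its 10 reads in EMSC replicate 3 made up most of the EMSC sum. Tgm4, the prostate transglutaminase, had 2 reads in NPS-EMSC replicate 2 and none elsewhere. Tgm6 and F13b, the carrier subunit of factor XIII, had no row.

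Genes farther out from Tgm5 changed by less. Of the next genes in order, Ccndbp1 beside Epb42 fell with a log2 fold change of -0.31 (SE 0.07, adjusted p = 5.25e-04), and Tmem62 had 0.06 (SE 0.08, adjusted p = 0.535). On the Tgm7 side Lcmt2, a methyltransferase gene, fell by 0.37 (SE 0.15, adjusted p = 0.0333) and Adal, an adenosine deaminase-like gene, fell by 0.90 (SE 0.18, adjusted p = 1.45e-04) on the log2 scale. Among all 19 tested genes within 12 places on each side of Tgm5, these 4 included and Epb42 left out, 10 fell and 2 rose, beside 29.5% of all tested genes lower and 29.7% higher in NPS-EMSC. Their median log2 fold change was -0.245, against -0.0048 over all genes tested. The lowest was that of Ckmt1, a mitochondrial creatine kinase gene, at -2.51 (SE 0.52, adjusted p = 1.96e-04). These genes were named for their position, after their values were seen.

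Around the other members no tested neighbour was called at a 2-fold change or more. Over the 3 protein-coding genes on each side of each member, 20 of 30 neighbours were tested. Among them 5 rose and 8 fell, beside 29.7% of all tested genes higher and 29.5% lower. Epb42 was the single neighbour called at that size. Among the neighbours not tested, Ly86 beside F13a1 had no read in NPS-EMSC, against 4, 1 and 4 reads in EMSC, and Vstm2l near Tgm2 had no read in NPS-EMSC, against 6, 2 and 0 reads in EMSC. The 6 neighbours of Tgm1 ranged from -0.81 to 0.52 on the log2 scale, and the 3 tested neighbours of Tgm2 from -0.33 to 0.01.

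**Figure D3:**
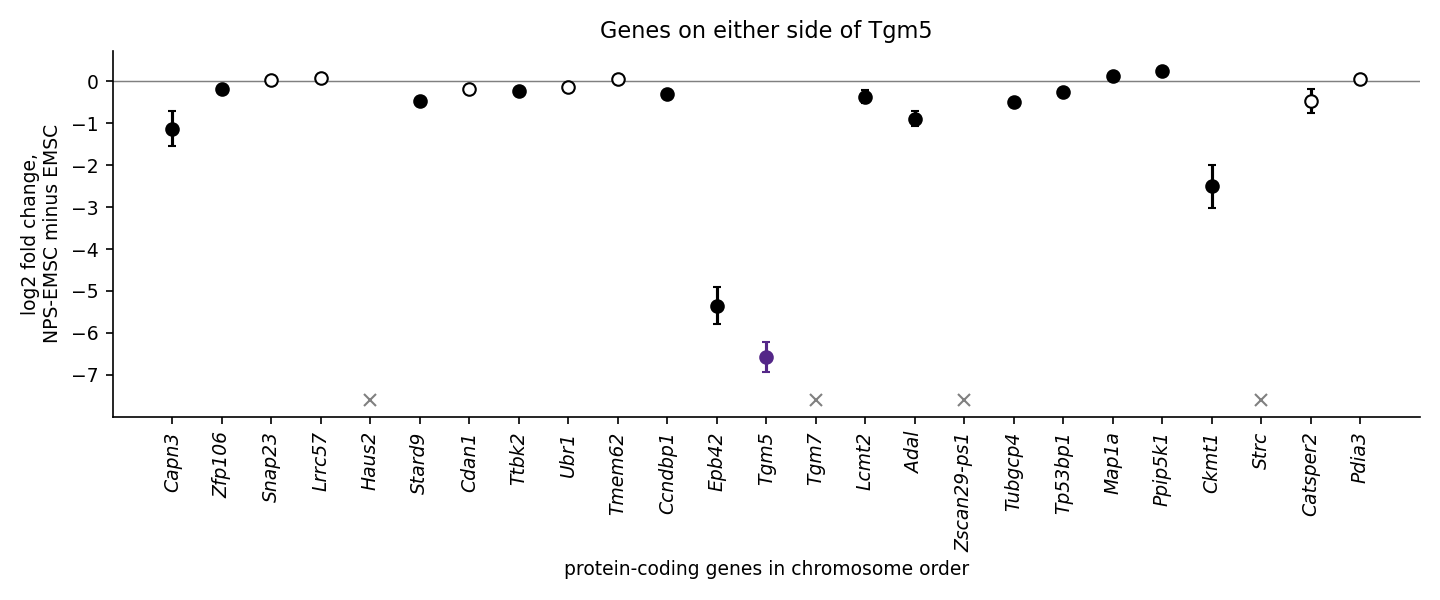
Log2 fold change, NPS-EMSC minus EMSC, with its SE (vertical axis) of the protein-coding genes within 12 places of Tgm5, in chromosome order (horizontal axis). Tgm5 is purple, filled black dots passed an adjusted p of 0.05, open dots did not, and crosses at the foot mark genes with no test; Tgm5 and Epb42 lie far below the rest.

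Of a red blood cell list added after its values were seen, 7 of 13 genes had a row. Gypc, which encodes glycophorin C, rose with a log2 fold change of 0.14 (SE 0.04, adjusted p = 0.00884). Alas2, the haem synthesis enzyme of red cell precursors, had no read in NPS-EMSC and 1 read in EMSC.

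Genes listed for the cornified envelope, in which Tgm1 and Tgm5 act, moved in both directions. Of 32 listed genes 18 had a row and 10 were tested, of which 4 rose, 2 fell and 4 did not pass, where 59.3% of all tested genes passed. Lce1m, a late cornified envelope gene, rose to 2.83 ± 0.604 CPM in NPS-EMSC, against 0.231 ± 0.130 CPM in EMSC (SD, n = 3 each; log2 fold change 3.35, SE 0.38, adjusted p = 3.42e-08). Cstb, the gene of the protease inhibitor cystatin B, rose by 0.42 (SE 0.05) on the log2 scale. Ppl, periplakin, a linker of the envelope to keratin filaments, fell to 18.9 ± 1.57 CPM in NPS-EMSC, against 66.8 ± 7.10 CPM in EMSC (log2 fold change -1.82, SE 0.08). Rarres1, a retinoid-responsive gene on the list that is not itself an envelope protein, fell with -3.09 (SE 0.09). The genes that fell were thus Ppl and Rarres1.

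Named after their values were seen, the small proline-rich substrate gene Sprr1a and the trichohyalin gene Tchh also rose. Sprr1a had 82, 116 and 117 reads in NPS-EMSC, against 11, 0 and 4 reads in EMSC (log2 fold change 3.99, SE 0.48, adjusted p = 1.91e-07). Tchh rose with 2.76 (SE 0.50), and passed the low-count filter through its NPS-EMSC reads only, so a rise was favoured in advance. Sprr and late envelope genes have close copies, so their reads, and those of Lyz2, may be shared with related genes. The median over the 10 tested genes of the list, Rarres1 included, was 0.53 on the log2 fold change scale, against -0.0048 over all genes tested.

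The defining epithelial and keratinocyte markers were mixed where Tgm1 was high, with basal keratins at 0 and other markers present. Krt5 had no read in NPS-EMSC, against 7, 3 and 18 reads in EMSC, and Krt14 had no read in NPS-EMSC, against 1 in EMSC. Krt10, a keratin of differentiating keratinocytes, had 39, 60 and 73 reads in NPS-EMSC, against 79, 95 and 92 reads in EMSC (log2 fold change -0.55, SE 0.29, adjusted p = 0.109). Epcam had 4 reads in each group, Cdh1, the gene of E-cadherin, had 2, 1 and 1 reads in NPS-EMSC, against 0, 3 and 3 reads in EMSC, and Krt1 had no row. Of the epithelial list, 19 of 22 genes had a row and 7 were tested. There 3 were higher, 1 was lower and 3 did not pass, where 59.3% of all tested genes passed. The simple epithelial keratin gene Krt18 rose to 5.98 ± 0.871 CPM in NPS-EMSC, against 0.691 ± 0.196 CPM in EMSC (log2 fold change 3.02, SE 0.24), Krt7 rose with 1.82 (SE 0.15) and Krt8 with 0.73 (SE 0.19). Tp63, the transcription factor gene of basal keratinocytes, fell to 0.716 ± 0.249 CPM in NPS-EMSC, against 5.37 ± 0.840 CPM in EMSC (log2 fold change -2.82, SE 0.26, adjusted p = 6.81e-10). Some other epithelial genes, named after their values were seen, had reads mainly or also in NPS-EMSC. The tight junction gene Ocln had 7, 16 and 12 reads in NPS-EMSC, against 0, 4 and 0 reads in EMSC. The transcription factor gene Grhl2 had 1, 8 and 9 reads in NPS-EMSC and none in EMSC, and neither gene was tested. Grhl3 had 48, 53 and 48 reads in NPS-EMSC, against 67, 26 and 28 reads in EMSC, and did not pass. Other untested genes of the list, also named after their values were seen, had more reads in EMSC. Ovol1 had 1, 0 and 0 reads in NPS-EMSC, against 9, 1 and 7 reads in EMSC. Cldn1 had 0, 6 and 0 reads in NPS-EMSC, against 5, 2 and 5 reads in EMSC. The epithelial list summed to 25.5 to 30.5 CPM per NPS-EMSC library and 16.3 to 17.7 CPM per EMSC library. This higher sum lay in Krt18, Krt8 and Krt7, the last at 11.4 ± 1.48 CPM in NPS-EMSC and 3.19 ± 0.225 CPM in EMSC. Tp63 went the other way, and the part of these genes in the Tgm1 difference was not tested.

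Most tested macrophage and platelet genes, which mark the usual sources of F13a1, were lower in NPS-EMSC. Of 26 listed genes 19 were tested, 13 fell, 3 rose and 3 did not pass, with a median log2 fold change of -1.86. Some of those that fell, Ptprc, Csf1r, Itgam and Tyrobp among them, passed the low-count filter through their EMSC reads only. For such genes a fall was favoured in advance, which weighs on the count and the median. Over all genes tested, 59.3% passed, with 29.5% lower and 29.7% higher in NPS-EMSC. Lyz2, a lysozyme gene, fell with -3.76 (SE 0.15) and Mrc1, the mannose receptor gene, fell to 1.16 ± 0.225 CPM in NPS-EMSC, against 8.18 ± 0.646 CPM in EMSC (log2 fold change -2.77, SE 0.20). Cd14 rose with 1.05 (SE 0.10) and Lyve1 with 0.62 (SE 0.19). The list summed to 51.0 to 54.5 CPM in NPS-EMSC and 100.3 to 109 CPM in EMSC. Most of that difference lay in Lyz2, at 3.84 ± 0.940 CPM in NPS-EMSC and 52.5 ± 7.71 CPM in EMSC. Cd14 went the other way, with 31.4 ± 0.614 CPM in NPS-EMSC and 15.1 ± 2.43 CPM in EMSC. Ptprc (CD45) had 0, 1 and 0 reads in NPS-EMSC, against 33, 20 and 41 reads in EMSC. The majority of tested genes on the list moved in the direction of Tgm5 and Epb42, and their part in those values was not tested. In bulk RNA, fewer cells of a type and less RNA per cell cannot be told apart. Of the endothelial list 4 genes were tested and none passed (0 by edgeR, DESeq2 or limma-voom, and 0 at an unadjusted p under 0.05).

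Matrix proteins known as transglutaminase substrates or partners moved in both directions. Of 39 listed genes 31 were tested, 17 fell, 9 rose and 5 did not pass, where 59.3% of all tested genes passed. The median log2 fold change was -0.28. Anxa2, annexin A2, fell to 188 ± 13.7 CPM in NPS-EMSC, against 638 ± 7.01 CPM in EMSC (SD, n = 3 each; log2 fold change -1.76, SE 0.05, adjusted p = 5.17e-20). Dcn, the collagen-binding proteoglycan decorin, fell to 477 ± 9.78 CPM in NPS-EMSC, against 1467 ± 64.5 CPM in EMSC (log2 fold change -1.62, SE 0.05). Col3a1, a fibrillar collagen gene, rose with 0.56 (SE 0.05) and Lamc1, a laminin chain gene, with 0.48 (SE 0.05).

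Fibronectin and osteopontin, classical substrates of Tgm2 that were named after their values were seen, went opposite ways. Fn1 fell to 7779 ± 263 CPM in NPS-EMSC, against 11286 ± 732 CPM in EMSC (log2 fold change -0.54, SE 0.05, adjusted p = 3.36e-09). Spp1 rose to 1580 ± 268 CPM in NPS-EMSC, against 339 ± 34.7 CPM in EMSC (log2 fold change 2.22, SE 0.16, adjusted p = 2.03e-04).

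Partners of Tgm2 at the cell surface, in export and in redox control were evenly split. Of 23 listed genes 21 were tested, 9 rose, 8 fell and 4 did not pass, where 59.3% of all tested genes passed. The median log2 fold change was -0.04. Mfge8, a secreted integrin ligand that bridges dying cells to phagocytes, rose to 648 ± 12.6 CPM in NPS-EMSC, against 289 ± 12.5 CPM in EMSC (log2 fold change 1.17, SE 0.05). Txnrd1, thioredoxin reductase, rose with 1.09 (SE 0.05). The Wnt co-receptor gene Lrp6 fell with -1.06 (SE 0.05), and Pdgfra, a platelet-derived growth factor receptor gene, fell with -0.95 (SE 0.05).

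Some partner genes named after their values were seen bear on the regulation of Tgm2 as an enzyme and a G protein. Txn1, thioredoxin, which reduces and activates extracellular TGM2 in human cells, rose with a log2 fold change of 0.74 (SE 0.05, adjusted p = 1.91e-12), while Pdia3, which oxidises it, had 0.06 (SE 0.05, adjusted p = 0.305). Of the alpha1-adrenergic receptors, for which Tgm2 can serve as a G protein, Adra1b fell to 4.56 ± 0.708 CPM in NPS-EMSC, against 14.2 ± 1.48 CPM in EMSC (log2 fold change -1.62, SE 0.14, adjusted p = 2.72e-10). Adra1d rose to 11.02 ± 0.553 CPM in NPS-EMSC, against 1.10 ± 0.284 CPM in EMSC (log2 fold change 3.27, SE 0.19, adjusted p = 7.59e-14). Adgrg1, the adhesion receptor gene GPR56 whose product binds TGM2, fell with -1.80 (SE 0.15, adjusted p = 7.49e-11).

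Most genes on a list of other matrix crosslinking and collagen-hydroxylating enzymes were higher. All 13 listed lysyl oxidase, lysyl and prolyl hydroxylase and peroxidasin genes were tested. Among them 9 rose, 3 fell and 1 did not pass, beside 29.7% of all tested genes higher and 29.5% lower. Their median log2 fold change was 0.38. The list summed to 5140 to 5281 CPM in NPS-EMSC and 5059 to 5409 CPM in EMSC, so the sums overlapped. P4ha1, a prolyl hydroxylase subunit gene, rose to 392 ± 0.914 CPM in NPS-EMSC, against 223 ± 10.9 CPM in EMSC (SD, n = 3 each; log2 fold change 0.82, SE 0.05, adjusted p = 4.94e-14). The lysyl oxidase-like gene Loxl2 rose with 0.93 (SE 0.07), whereas Loxl1 fell with -0.59 (SE 0.05) and Pxdn, peroxidasin, fell with -0.42 (SE 0.05).

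Genes of the retinoid, TGF-β, NF-κB and hypoxia routes that are known to control Tgm2 did not move one way. Of 36 listed genes 31 were tested, 9 rose, 16 fell and 6 did not pass, where 59.3% of all tested genes passed. The median log2 fold change was -0.20. Aldh1a3, a retinoic acid synthesis enzyme gene, fell to 12.95 ± 1.60 CPM in NPS-EMSC, against 43.4 ± 2.60 CPM in EMSC (SD, n = 3 each; log2 fold change -1.74, SE 0.09, adjusted p = 7.11e-15), and the retinoic acid carrier gene Crabp2 fell with -1.73 (SE 0.09). Named after its values were seen, the retinoic acid-degrading enzyme gene Cyp26b1 fell with -2.84 (SE 0.15). Other retinoid genes on the list, also named after their values were seen, did not fall. The receptor gene Rarb rose with 1.34 (SE 0.27), and Aldh1a2, with -0.11 (SE 0.12), did not pass. Hif1a, the hypoxia-responsive transcription factor gene, rose with 0.91 (SE 0.05) and the cytokine gene Il6 rose to 14.3 ± 0.945 CPM in NPS-EMSC, against 3.14 ± 0.752 CPM in EMSC (log2 fold change 2.17, SE 0.16).

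On the mesenchymal list itself 9 of 15 genes rose and 6 fell, with a median log2 fold change of 0.32. Besides Thy1 and Nt5e, which rose with 1.55 (SE 0.05) and 2.16 (SE 0.08), Vcam1, an adhesion molecule gene, fell with -2.54 (SE 0.14) and Pdgfra fell as given above. Of the genes counted above, 6 stand on more than 1 list, among them Pdgfra and Itgb1.

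**Figure D4:**
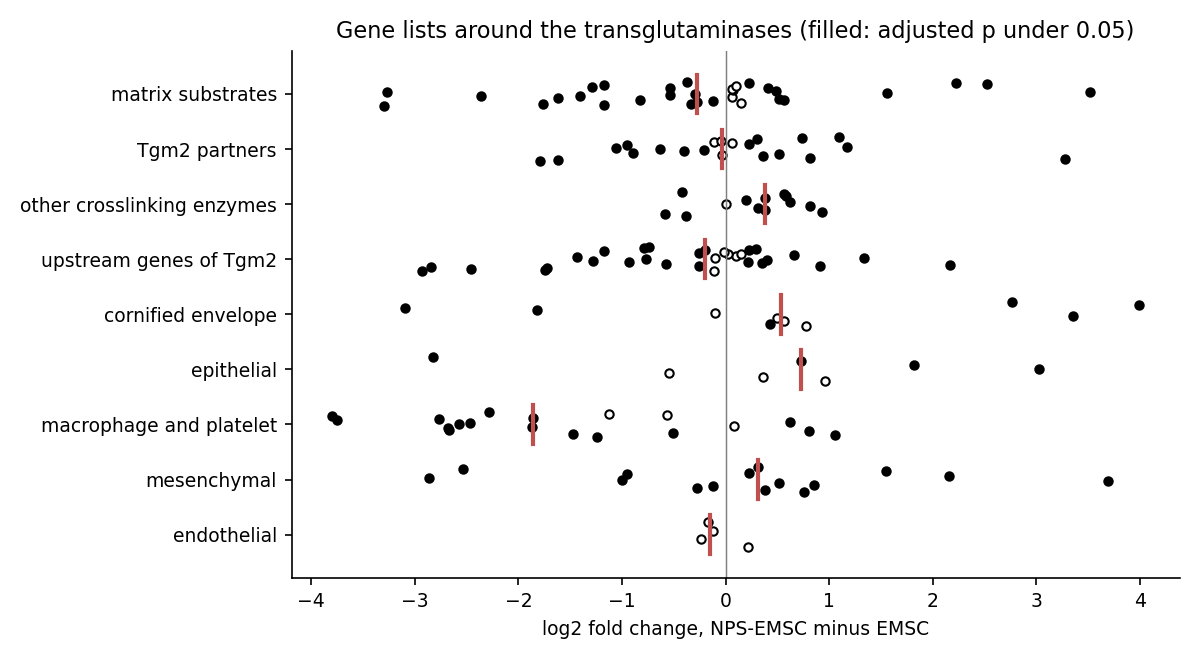
Log2 fold change, NPS-EMSC minus EMSC (horizontal axis), of the tested genes of each list, with a dot per gene, filled where the adjusted p was under 0.05, and a red bar at the list median. Matrix substrates, Tgm2 partners and upstream genes spread to both sides of 0, other crosslinking enzymes lie mostly above 0 and macrophage and platelet genes mostly below.

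The genes whose pattern over the 6 libraries was most like that of each tested member were sought among tested genes with a mean of at least 1 CPM. Likeness was the root mean square difference between log2(CPM + 0.5) profiles, each centred on its own mean. For Tgm2 these were Chrac1, a chromatin accessibility complex gene, at 0.0261, Limk2, a kinase gene of the actin cytoskeleton, at 0.0298, and Tmod2, tropomodulin 2, at 0.0339. For Tgm1 they were the skeletal actin gene Acta1 at 0.118, Tnfrsf11b, which encodes osteoprotegerin, at 0.123, and Tmem200b at 0.160. Reads of Acta1 may be shared with near-identical actin genes.

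For Tgm5 the nearest profiles were those of Slc2a13, a myo-inositol transporter gene, at 0.0965, Cldn11, a claudin gene, at 0.101, and Grin3a, a glutamate receptor subunit gene, at 0.125. These 3 genes were lower but still present in NPS-EMSC. Slc2a13, for example, stood at 6.32 ± 0.238 CPM in NPS-EMSC and 75.7 ± 5.75 CPM in EMSC (SD, n = 3 each). The added 0.5 compresses the profile of Tgm5, so on this scale its near loss resembles a smaller relative decrease of more abundant genes.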

How the data were processed

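The authors deposited raw read counts per gene and FPKM values of the same genes, with 1 column per library. The length implied by counts over FPKM agreed within 0.1% between libraries for every gene, so both deposited tables hold the same measurement. Tools listed in the submitters' processing notes are HISAT2, StringTie, HTSeq, fastp, R 3.2.0 and DESeq, without roles. No genome build, annotation or strand setting is given in the sources used here.

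All genes were tested together with the edgeR 4.0.16 quasi-likelihood F test in R 4.3.3 (TMM, filterByExpr with a minimum count of 10 and a minimum total of 15, robust fit, prior count of 2). Genes with a Benjamini-Hochberg adjusted p under 0.05 counted as called. Each SE was taken as |log2 fold change| over the root of F, and is rough for genes near 0 reads. Alternatives used upper-quartile or RLE scaling, limma-voom (limma 3.58.1), DESeq2 1.42.0, other filters, log2(FPKM + 1) and log2(FPKM + 0.1), a replicate block, a prior count of 0.5 and each library left out. The fit was tested on simulated counts.

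The members and the 10 gene lists (other family genes, matrix substrates, Tgm2 partners, crosslinking enzymes, cornified envelope, epithelial, macrophage and platelet, upstream genes, mesenchymal, endothelial) were chosen with earlier results of these data known. A red blood cell list was added later, of which 1 result is not reported here. Lists were described by counts and medians. Up to 4 called genes per list were named by smallest p, 2 per direction where possible. Named too were all family genes with a row, called neighbours that changed at least 2-fold, and the 3 most similar profiles per member. RefSeq tables (GRCr8) gave gene order and promoters, and 18153 of 20653 symbols matched.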

Additional observations from a re-analysis of the deposited data

How the results depend on the processing

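The number of genes called over the whole table stayed between 7590 and 8914 over the alternatives, against 8600, and was 7870 to 8341 with a library left out. The 3 fitted members kept their direction in every alternative. Tgm1, at 2.65, became 1.25 on log2(FPKM + 1), with or without the filter, and 2.37 on log2(FPKM + 0.1), and ranged from 2.46 to 2.84 without single libraries. The log2 fold change of Tgm5, at -6.57, became -9.23 with DESeq2, -8.22 with limma-voom, -8.04 with a prior count of 0.5, -2.08 on log2(FPKM + 1), with or without the filter, and -5.01 on log2(FPKM + 0.1). These settings differ in what they add to the near-zero NPS-EMSC values. It ranged from -6.81 to -6.47 without single libraries. Tgm2 ranged from -0.33 to -0.14 without single libraries and from -0.27 to -0.21 otherwise. The share of Tgm2 in EMSC was 94.3% of summed CPM.

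Called macrophage and platelet genes numbered 10 at 1 CPM in 3 libraries, 10 on log2(FPKM + 1) and 10 on log2(FPKM + 0.1), against 16. Genes that a filter left out could not be called. Ptprc, at 0.801, 0.495 and 1.03 CPM in EMSC, was such a gene at 1 CPM in 3 libraries. On log2(FPKM + 1) with no filter, 14 were called. Called epithelial genes numbered 8 with no filter, against 4. Without single libraries, 0 to 1 endothelial genes were called, the 1 without EMSC replicate 2. The list genes named by smallest p, and Epb42, kept direction and call in 512 of 512 values under these alternatives. The list genes were picked among called genes of these same libraries, so that outcome was close to set in advance and says little of other genes. List genes named after their values were seen were not included.

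Replicate numbers did not pair the libraries. Deviations from the group means correlated at -0.0526, 0.0675 and 0.0464 for equal numbers. With the replicate number as a block, 8588 genes were called, Tgm2 was -0.22 and no list count moved by over 1.5 times. Depth limits F13a1, Tgm4 and Tgm7, where a few reads decide the value.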

Other observations

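The joint loss of Tgm5 and Epb42 was set beside all pairs of neighbouring genes, a count chosen after their values were seen. Of 14505 genes tested, 37 (0.255%) were called and at least 16-fold lower in NPS-EMSC. Among 8772 pairs of adjacent protein-coding genes in the RefSeq order with both genes tested, 2 pairs had both genes in that class. The first was Epb42 with Tgm5. Their values were in view when the count was set, so nothing is read from how few pairs it held. The second was Kera with Epyc, which encode the small leucine-rich proteoglycans keratocan and epiphycan, with log2 fold changes of -4.91 and -4.66 (adjusted p = 1.58e-19 and 9.75e-15 by edgeR).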
